A study of Mus musculus with 12 samples.

Results

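The Wnt ligands, receptors and inhibitors of mouse dorsal skin were followed across healthy skin, skin with a 2,4-dinitrochlorobenzene (DNCB) dermatitis resembling atopic dermatitis, and dermatitis skin of mice given mesenchymal stem cells (MSCs). Members were chosen by gene name, with earlier results of these data known. They comprised the genes named Wnt, Fzd, Sfrp, Dkk or Rspo with a number, together with Lgr4, Lgr5, Lgr6, Lef1, Tcf7, Axin2, Notum, Wif1, Lrp5, Lrp6, Nkd1 and Nkd2. They were 54 of the 36400 genes measured by RNA sequencing. They held 19 Wnt ligands, 10 Frizzled receptors, 7 R-spondins or their receptors, 2 co-receptors, 10 secreted inhibitors, 3 intracellular feedback inhibitors, 2 transcription factors and 1 antisense transcript, Fzd10os, which shares the name of a receptor but codes for none.

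All mice were female BALB/c mice, purchased at 6 weeks of age. The back was shaved and treated with hair removal cream before sensitization. It was shaved again during the challenge period, before skin was collected on day 30. Control mice, labelled Solvent, received a mixture of acetone and olive oil, and DNCB mice received 1% DNCB for sensitization and 0.5% DNCB for challenge. The scMSC group received DNCB and then 4 injections of 2000000 human umbilical cord MSCs in 100 µL under the skin, and the scivMSC group received the same number of cells divided between the skin (50 µL) and the tail vein (50 µL). Each group had 3 libraries of whole dorsal skin, which are numbered as in the labels (DNCB 1, for example), and these 12 libraries include no skin injected without cells and no MSC skin without DNCB. The labels do not state that the libraries of a group came from separate mice, so the p-values measure the spread between these libraries, which may be technical.

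Wnt proteins are lipid-modified secreted ligands that bind a Frizzled receptor together with the co-receptor Lrp5 or Lrp6, which stabilizes β-catenin and lets it act with Lef1 and Tcf7 on target genes, while some ligands act without β-catenin. R-spondins, acting through Lgr receptors, keep Frizzled receptors at the cell surface. Secreted Sfrp, Dkk, Wif1 and Notum proteins restrain the ligands or their receptors, and Axin2, Nkd1 and Nkd2 are induced by the pathway and damp it. In skin, the pathway is known for starting hair follicles, for entry of the follicle into its growth phase and for the making of the hair shaft.

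Expression levels are given as FPKM, a count of fragments scaled to transcript length and library size, as the authors deposited it, so levels can be compared between genes within a library. Between groups the FPKM scale is shifted, since on it the median of all genes was 0.105 to 0.227 log2 units higher in DNCB than in control skin, depending on the value added before taking logs, beside 0.02 on the scaling used for the tests. Fold changes and tests rest on the deposited estimated counts, compared with the quasi-likelihood F-test of edgeR over 21890 genes whose mean level reached 0.1 FPKM. A gene was called, and is said to have risen or fallen, when the log2 fold change exceeded 1 in size at a p below 0.05 after Benjamini-Hochberg adjustment, and errors are standard errors (SE) for log2 fold changes and standard deviations (SD, n = 3) for summed levels. A value given as a ± b for a gene is its log2 fold change with its SE, positive when the group named before "against" or after "with" was higher. Each test was repeated under 21 alternative fits, of which 12 left out 1 library. Libraries held 63877153 to 75134001 estimated counts. Krt5, a keratin of basal keratinocytes, was at 759 to 3259 FPKM over the 12 libraries, while the summed level of 8 T cell markers was only 2.27 to 5.65 FPKM. Control 2 stood apart from the other controls for hair genes, with a summed level of 312 FPKM for 10 hair shaft and inner root sheath genes against 10.9 and 3.43 FPKM. In whole tissue, fewer cells of a type and less RNA per cell cannot be told apart.

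Sequence at a transcription start, which for Lef1 is an internal one, is shown for 4 of the 6 members called against DNCB in both MSC groups. Lef1, Wnt11 and Wnt3 are shown because they carry the letters CTTTGA or CTTTGT, the core of the DNA sequence that Lef1 and Tcf7 are known to bind, and Sfrp2 as the member that fell. The window of Nkd2, which held no match, is not printed, and Notum had no window in the table used. Windows from 250 bases before to 50 after a RefSeq transcription start (assembly GRCm38.p6) were searched on both strands, and the letters found are in capitals. On the minus strand they read as TCAAAG or ACAAAG. The Lef1 stretch lies within an intron of the gene, before an internal start, and the Wnt11 and Sfrp2 stretches lie just outside the gene. All 3 hold the 250 bases before the start. For Wnt3 only 30 exon bases around the match are shown.
Lef1, chr3:131156044-131156293, plus strand: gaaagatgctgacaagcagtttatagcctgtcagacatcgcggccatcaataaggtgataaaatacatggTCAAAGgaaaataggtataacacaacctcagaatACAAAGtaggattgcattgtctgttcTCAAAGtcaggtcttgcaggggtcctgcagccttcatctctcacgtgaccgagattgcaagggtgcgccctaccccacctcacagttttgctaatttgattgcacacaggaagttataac
Wnt11, chr7:98834862-98835111, plus strand: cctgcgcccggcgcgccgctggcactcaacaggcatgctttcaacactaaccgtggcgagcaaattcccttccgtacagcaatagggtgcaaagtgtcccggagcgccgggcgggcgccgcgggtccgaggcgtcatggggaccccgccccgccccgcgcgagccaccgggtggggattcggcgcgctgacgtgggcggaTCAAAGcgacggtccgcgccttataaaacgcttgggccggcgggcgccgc
Wnt3, chr11:103774181-103774210, plus strand: acctcaagtggaCTTTGTtccaactattgg
Sfrp2, chr3:83766071-83766320, plus strand: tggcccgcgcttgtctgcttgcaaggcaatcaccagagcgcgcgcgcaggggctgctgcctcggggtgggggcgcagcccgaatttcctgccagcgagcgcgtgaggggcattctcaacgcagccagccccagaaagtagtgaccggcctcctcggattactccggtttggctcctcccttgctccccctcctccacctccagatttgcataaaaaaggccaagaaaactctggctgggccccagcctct
The Lef1 stretch held 3 matches, which began 180, 146 and 120 bases before the start, and the Wnt11 stretch held 1 match, 50 bases before the start. The Wnt3 match lay 18 to 23 bases after the start, and the Sfrp2 window held none. Among the 19 members called in at least 1 comparison with or against DNCB, 13 had a window in the table used and 3 of these (23.1%) held a match. Of all 27025 genes with a window, 34.5% held a match. The Lef1 matches were in 1 of its 4 windows, whose start lies 42438 bases from the nearest transcript start in GENCODE. The letters say nothing of binding in these samples.

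Nearly all members were present in skin at low to moderate levels. Averaged over the 12 libraries, 11 members were at 10 FPKM or more, 33 were between 1 and 10 FPKM and 3 were between 0.1 and 1 FPKM, and 7 were below 0.1 FPKM and were not tested. The 10 members with the highest mean level were Fzd1 (26.5 FPKM), Wnt4 (19.5 FPKM), Fzd7 (18.3 FPKM), Fzd6 (17.1 FPKM), Fzd4 (15.3 FPKM), Dkk3 (14.9 FPKM), Fzd10 (12.5 FPKM), Sfrp2 (12.2 FPKM), Lgr4 (11.2 FPKM) and Wif1 (11.2 FPKM), so that receptors, and not ligands, made up most of the upper end. The untested members were Wnt1, Wnt7a, Wnt8a, Wnt8b, Wnt9b, Dkk1 and Dkk4. Dkk1, an inhibitor of Lrp5 and Lrp6, reached 31 estimated counts in its highest library, where about 4 estimated counts were taken to stand for 1 fragment. Dkk4 and Wnt1 had counts only in control 1 and 2, with 6 and 23 estimated counts for Dkk4 and 11 and 13 for Wnt1. On that reading a gene seen as 3 fragments would have 12 estimated counts, so these 3 genes were close to what this depth can detect. Wnt7a was at 0 to 64, Wnt9b at 0 to 94 and Wnt8a at 0 to 73 estimated counts, and Wnt8b had counts in 2 libraries, of 4 and 7.

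In the 3 comparisons with or against DNCB, most calls among the members were rises in MSC skin over DNCB skin. With DNCB, 8 of the 47 tested members were called against control, or 17.0%, beside 14.2% of all genes. Of these, 2 rose and 6 fell, beside 6.59% and 7.57% of all genes. In scMSC skin 13 members were called against DNCB (27.7%), of which 12 rose and Sfrp2 fell, while 8.5% of all genes were called, 4.66% higher and 3.84% lower. In scivMSC skin 6 members were called against DNCB (12.8%), of which 5 rose and Sfrp2 fell, while 5.46% of all genes were called, 3.13% higher and 2.33% lower. The 3 comparisons share the DNCB libraries. The median log2 fold change of the 47 members was -0.04 for DNCB against control, 0.69 for scMSC against DNCB and 0.42 for scivMSC against DNCB, while the median of all genes was 0.02 in each. In the plot of fold changes by role, the members that rose with scMSC come from every role except the co-receptors and the R-spondins with their receptors.

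**Figure D1:**
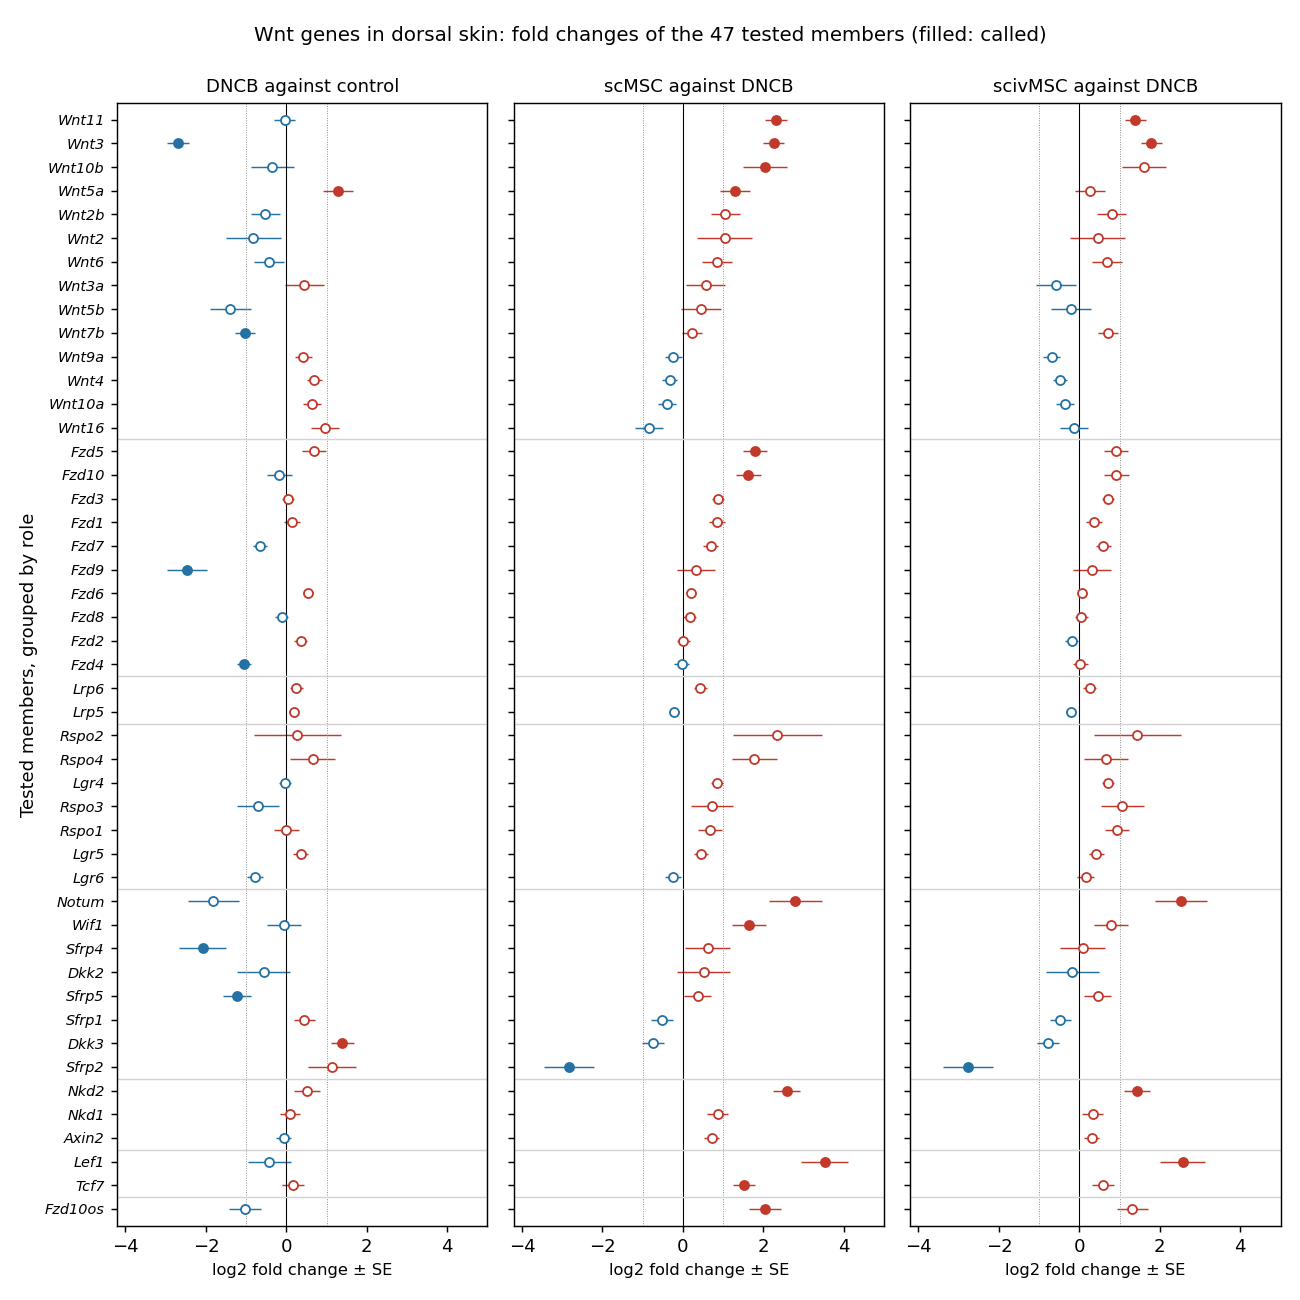
Log2 fold change with its standard error (bars) of the 47 tested members, grouped by role (grey lines), for DNCB against control, scMSC against DNCB and scivMSC against DNCB. Red marks values above 0 and blue values below, filled points are called genes, and dotted lines mark 1 and -1. With DNCB, 6 filled points lie on the left and 2 on the right, and in both MSC panels Sfrp2 is the only filled point on the left.

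Among the ligands, Wnt3 was called in all 3 comparisons. This ligand, which acts through β-catenin in the epidermis and hair follicle, was at 12.0, 10.7 and 19.04 FPKM in the 3 controls and 2.29, 2.73 and 2.25 FPKM with DNCB. Levels were 13.4, 11.3 and 9.50 FPKM in scMSC skin and 10.8, 5.82 and 8.36 FPKM in scivMSC skin. The DNCB libraries were thus the lowest of all, with no overlap with any other group. Wnt3 fell 6.45-fold with DNCB (log2 fold change -2.69 ± 0.27, adjusted p = 0.000431) and rose from DNCB 4.78-fold in scMSC skin (2.26 ± 0.26, adjusted p = 0.00176) and 3.46-fold in scivMSC skin (1.79 ± 0.26, adjusted p = 0.00487). Each of these calls stood under all 21 alternative fits, including those that left out 1 library. Against control, Wnt3 was not called in either MSC group, with log2 fold changes of -0.43 ± 0.25 (adjusted p = 0.264) and -0.90 ± 0.25 (adjusted p = 0.0387, under the fold limit).

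Wnt11, a ligand best known for signalling without β-catenin, was called with MSCs and not with DNCB. It was at 1.42, 2.12 and 1.64 FPKM in control and 2.00, 1.61 and 2.16 FPKM in DNCB skin, and these groups overlapped. In scMSC skin it was at 7.07, 11.5 and 9.49 FPKM and in scivMSC skin at 6.72, 4.88 and 3.59 FPKM, all above both other groups. It rose 4.98-fold from DNCB with scMSC (2.32 ± 0.28, adjusted p = 0.00183) and 2.63-fold with scivMSC (1.39 ± 0.27, adjusted p = 0.0135). The scivMSC call was lost without DNCB 2 or scivMSC 1 (adjusted p = 0.0538 to 0.0605 there and 9.18e-05 to 0.0605 over all alternatives).

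Wnt5a, the most studied of the ligands that act without β-catenin, rose with DNCB. It was at 1.72, 2.24 and 1.295 FPKM in control, 5.36, 4.79 and 4.48 FPKM in DNCB, 5.17, 13.0 and 16.9 FPKM in scMSC and 6.07, 6.91 and 4.57 FPKM in scivMSC skin. Every DNCB library was above every control, whereas scMSC 1 lay within the DNCB range and the other scMSC libraries were far above it. The rise with DNCB was 2.43-fold (1.28 ± 0.37, adjusted p = 0.0277), and it was no longer called without control 1 or control 3 or any of the DNCB replicates (adjusted p = 0.0538 to 0.1005 there and 0.00317 to 0.1005 over all alternatives). With scMSC the level rose a further 2.46-fold from DNCB (1.297 ± 0.37, adjusted p = 0.0435), a call that stood in only 6 of 21 alternatives and was lost without control 1, any DNCB replicate, scMSC 2 or scMSC 3, or any scivMSC replicate (adjusted p = 0.0504 to 0.152 there and 0.00348 to 0.152 over all alternatives). The scivMSC change was 0.26 ± 0.37 (adjusted p = 0.744).

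Wnt10b, a ligand acting through β-catenin and known for its part in the growth phase of the hair follicle, was higher with MSCs. It was at 3.20, 6.39 and 1.26 FPKM in control and 3.44, 3.10 and 3.38 FPKM in DNCB skin, with control 2 again the highest control. Levels were 10.1, 9.37 and 20.7 FPKM in scMSC skin and 8.01, 6.89 and 14.8 FPKM in scivMSC skin, above every DNCB and every control library. It rose 4.10-fold with scMSC (2.03 ± 0.55, adjusted p = 0.0345), and the call was lost without any DNCB replicate or without scMSC 2 or scMSC 3 (adjusted p = 0.0549 to 0.116 there and 0.00118 to 0.116 over all alternatives). This call stood in 15 of 21 alternatives. The scivMSC difference of 1.61 ± 0.54 did not pass (adjusted p = 0.0988), although it did without control 3 (adjusted p = 0.0391) and under 2 other alternatives (adjusted p = 0.0208 to 0.0391 there and 0.0208 to 0.293 over all alternatives).

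Wnt7b, a ligand of the epidermis and follicle, was lower with DNCB, from 6.41, 7.54 and 8.07 FPKM in control to 3.95, 5.02 and 3.32 FPKM, with no overlap. It fell 2.03-fold (-1.02 ± 0.25, adjusted p = 0.0139), just past the fold limit. The call was lost in 3 fits on log2(FPKM + pseudocount), where the log2 change was -0.72 to -0.85, and without DNCB 1 or DNCB 3 (log2 fold changes of -0.99 and -0.89, adjusted p = 0.0502 to 0.0574 there and 0.000999 to 0.0574 over all alternatives). Levels in scMSC skin were 6.75, 4.38 and 3.06 FPKM and in scivMSC skin 7.65, 6.03 and 6.36 FPKM, and neither differed from DNCB by a call (adjusted p = 0.657 and adjusted p = 0.115). Wnt4, the ligand with the highest level, was at 11.6, 14.8 and 15.5 FPKM in control and 24.0, 31.8 and 21.2 FPKM with DNCB, without overlap. Its change of 0.70 ± 0.18 passed the adjusted p (adjusted p = 0.0172) but not the fold limit, and it missed the adjusted p without control 1 or DNCB 2 (adjusted p = 0.0687 to 0.0855 there and 0.00390 to 0.0855 over all alternatives). The other 8 tested ligands, Wnt2, Wnt2b, Wnt3a, Wnt5b, Wnt6, Wnt9a, Wnt10a and Wnt16, were called in none of the 6 comparisons.

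**Figure D2:**
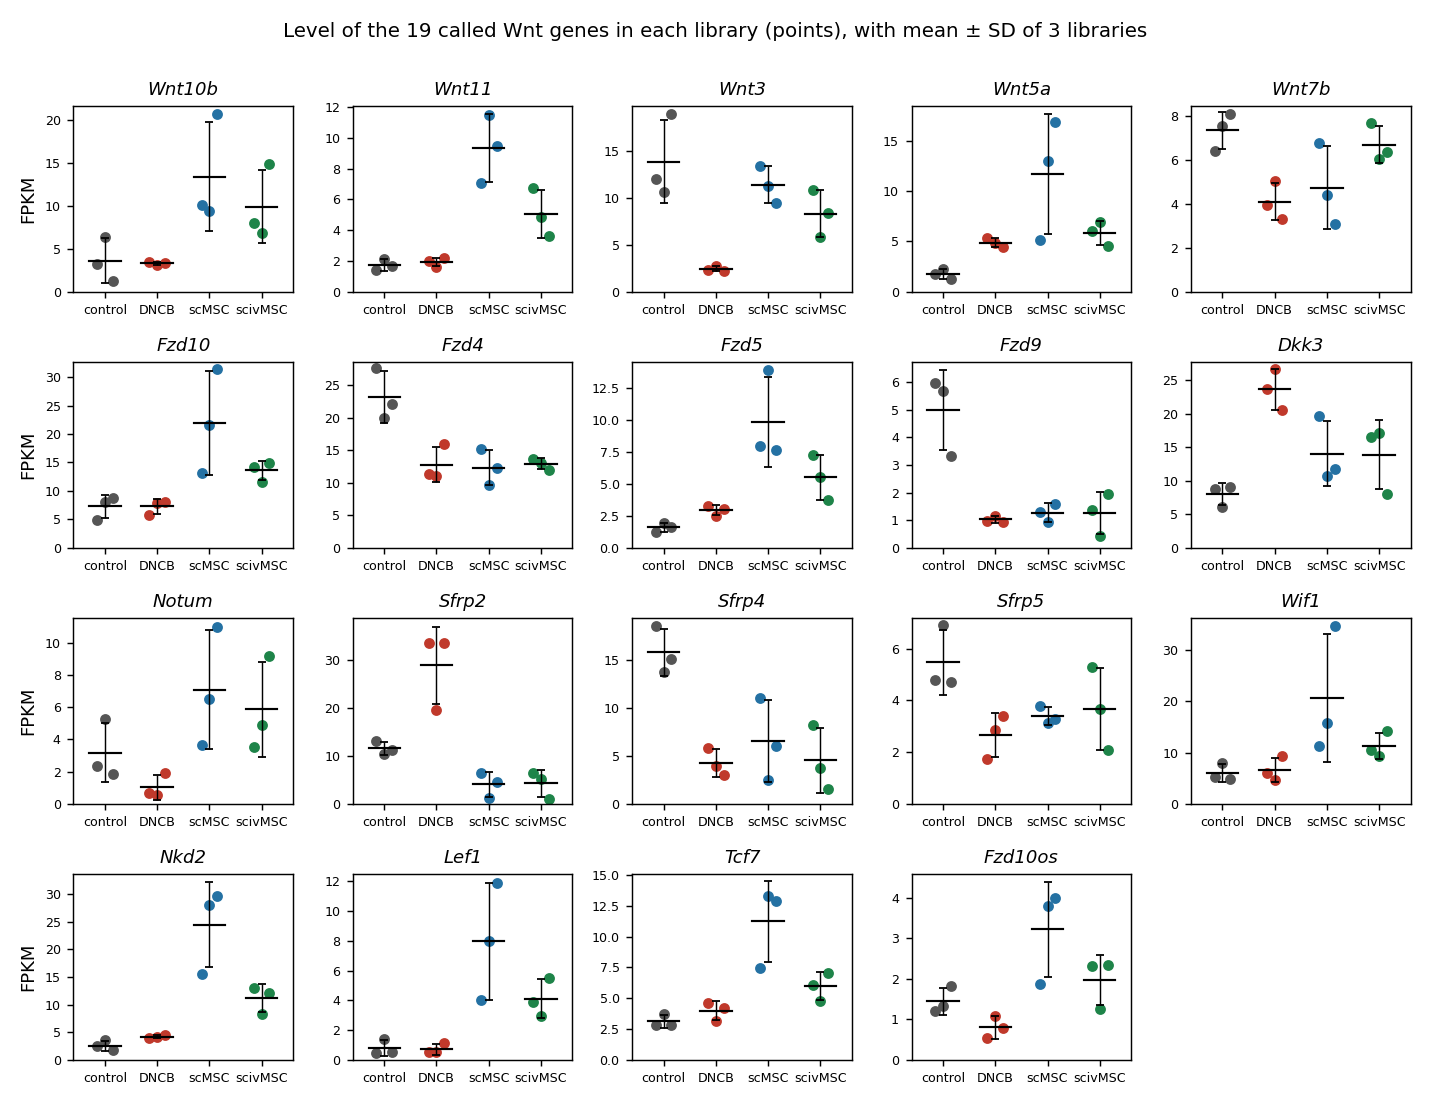
Level in FPKM (vertical axes, each from 0) of the 19 members called with DNCB or against DNCB, in each library (points) with the mean of 3 libraries (line) and SD (bars), by group. Wnt3 is lowest in the 3 DNCB libraries (2.25 to 2.73 FPKM), Sfrp2 is highest there (19.7 to 33.7 FPKM), and Lef1 and Nkd2 are higher in all 6 MSC libraries than in any other.

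With DNCB the make-up of the ligands differed from control while their summed level lay within the spread of the libraries. The summed level of the 19 ligands was 59.0 ± 5.46 FPKM in control, 63.8 ± 8.88 FPKM in DNCB, 92.6 ± 12.5 FPKM in scMSC and 72.5 ± 4.30 FPKM in scivMSC skin. Wnt3 made up 17.7% to 29.9% of that sum in the controls, 3.71% to 4.01% with DNCB, 8.91% to 16.3% with scMSC and 8.62% to 14.4% with scivMSC. Wnt4 went the other way, with 22.0% to 24.5% in control, 37.7% to 43.2% in DNCB, 19.9% to 24.3% in scMSC and 21.7% to 29.8% in scivMSC skin. For both ligands the DNCB shares lay outside the range of all other libraries. These shares are descriptions and were not tested.

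**Figure D3:**
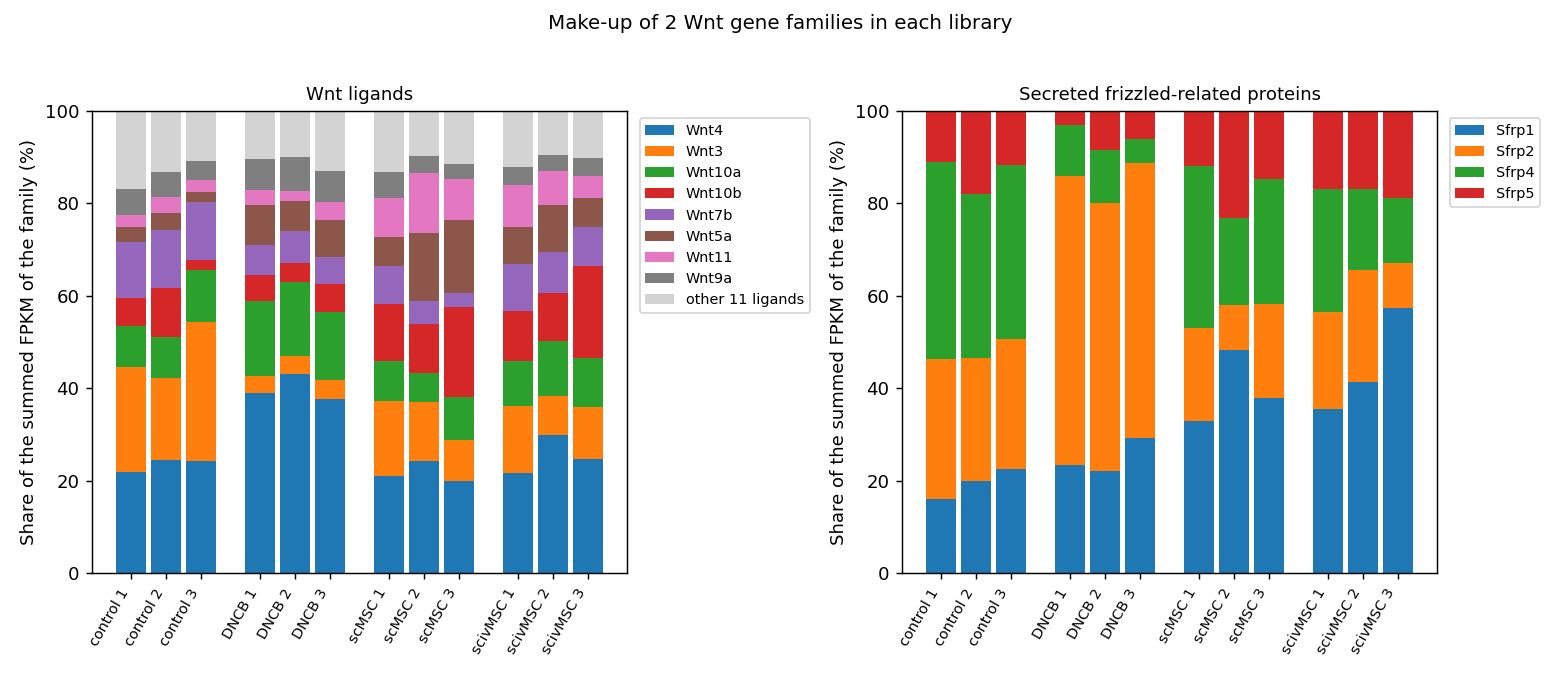
Share (%) of each gene in the summed FPKM of its family, for the 19 Wnt ligands (left, the 8 with the largest mean share named) and the 4 secreted frizzled-related proteins (right), in each of the 12 libraries (bars). Wnt3 is a thin band in the 3 DNCB libraries (3.71% to 4.01%), where Sfrp2 takes 57.9% to 62.5% of its family.

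Of the 10 Frizzled receptors, 2 fell with DNCB (20%, beside 7.57% of all genes) and 2 others rose with scMSC (20%, beside 4.66%). Fzd9 was at 5.99, 5.68 and 3.34 FPKM in control and 0.967, 1.16 and 0.948 FPKM in DNCB skin, and it stayed low with 1.29, 0.922 and 1.60 FPKM in scMSC and 1.38, 0.438 and 1.96 FPKM in scivMSC skin. Every control exceeded every other library. The fall with DNCB was 5.57-fold (-2.48 ± 0.49, adjusted p = 0.00480) and was called under all 21 alternatives, and the changes from DNCB with MSCs were 0.32 ± 0.47 and 0.32 ± 0.47 (adjusted p = 0.752 and adjusted p = 0.756). Fzd4, also a receptor for the ligand norrin in blood vessels, showed the same order at a higher level, with 27.7, 19.9 and 22.1 FPKM in control, 11.3, 11.03 and 15.9 FPKM in DNCB, 15.1, 9.66 and 12.2 FPKM in scMSC and 13.6, 13.0 and 12.0 FPKM in scivMSC skin. It fell 2.07-fold with DNCB (-1.05 ± 0.18, adjusted p = 0.00257). Without control 1 or DNCB 1 or DNCB 2 its log2 change was -0.93, -0.97 and -0.96, short of the fold limit, with adjusted p = 0.00851 to 0.0149. In the 3 fits on log2(FPKM + pseudocount) its change was -0.82 to -0.87. The summed level of 6 endothelial markers was 27.4 to 42.0 FPKM in control and 52.6 to 66.7 FPKM in DNCB skin. None of the 6 was called with DNCB, and the part of this list in the Fzd4 fall was not tested.

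Fzd5 and Fzd10 rose with scMSC. Fzd5 was at 1.21, 1.94 and 1.62 FPKM in control, 3.26, 2.52 and 3.05 FPKM in DNCB, 7.96, 13.9 and 7.67 FPKM in scMSC and 7.26, 5.54 and 3.75 FPKM in scivMSC skin. The groups formed an order without overlap between control, DNCB and either MSC group. The scMSC rise was 3.45-fold from DNCB (1.79 ± 0.30, adjusted p = 0.00459), while the scivMSC change was 0.91 ± 0.30 (adjusted p = 0.0917). Fzd10 was at 4.95, 8.09 and 8.70 FPKM in control and 5.81, 7.92 and 8.05 FPKM in DNCB skin, and at 13.1, 21.5 and 31.4 FPKM in scMSC and 14.2, 11.6 and 14.9 FPKM in scivMSC skin. All MSC libraries were above all others. It rose 3.09-fold with scMSC (1.63 ± 0.31, adjusted p = 0.00758) and its scivMSC change was 0.92 ± 0.31 (adjusted p = 0.0975). Both scMSC calls stood under all 21 alternatives. Fzd10os, a transcript named for the opposite strand of the Fzd10 region that does not overlap Fzd10 in the files' coordinates, was at 0.538, 1.09 and 0.776 FPKM in DNCB and 1.87, 3.80 and 3.98 FPKM in scMSC skin. It rose 4.10-fold (2.04 ± 0.40, adjusted p = 0.00804) under all 21 alternatives. With scivMSC its level was 2.31, 1.26 and 2.34 FPKM and its change 1.31 ± 0.39 (adjusted p = 0.0643), which passed without scMSC 1, without scivMSC 2 and in DESeq2 (adjusted p = 0.0125 to 0.0389 there and 0.0125 to 0.203 over all alternatives).

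Smaller differences in the receptors passed the adjusted p without reaching the fold limit. Fzd1, the member with the highest level, was at 24.6, 19.3 and 21.8 FPKM in DNCB and 34.9, 47.1 and 33.3 FPKM in scMSC skin (0.85 ± 0.20, adjusted p = 0.0197), and it missed the adjusted p without DNCB 2 or DNCB 3 or scMSC 2 (adjusted p = 0.0653 to 0.0852 there and 0.00240 to 0.0852 over all alternatives). Fzd3 was higher than in DNCB in both MSC groups, by 0.88 ± 0.15 with scMSC (adjusted p = 0.00483) and 0.71 ± 0.15 with scivMSC (adjusted p = 0.0201). The scivMSC difference missed without DNCB 1 or DNCB 3 or scivMSC 1 (adjusted p = 0.0523 to 0.0759 there and 0.000601 to 0.0759 over all alternatives). It passed in 17 of 21 alternatives. Fzd6 was 0.54 ± 0.12 higher with DNCB than in control (adjusted p = 0.00732), and Fzd7 was lower with DNCB by a log2 change of -0.65 ± 0.18 (adjusted p = 0.0242) and higher again with scMSC by 0.69 ± 0.18 (adjusted p = 0.0329). The Fzd7 differences missed without control 1 or DNCB 2 or DNCB 3 for the former (adjusted p = 0.0611 to 0.0913 there and 0.00530 to 0.0913 over all alternatives) and without DNCB 2 or DNCB 3 or scMSC 2 or scMSC 3 for the latter (adjusted p = 0.0654 to 0.125 there and 0.00736 to 0.125 over all alternatives). They passed in 15 and 16 of 21 alternatives. Fzd2 and Fzd8 passed in none of the 3 comparisons. The summed level of the 10 Frizzled receptors was 92.3 ± 7.49 FPKM in control, 88.5 ± 4.65 FPKM in DNCB, 138 ± 12.2 FPKM in scMSC and 111 ± 9.16 FPKM in scivMSC skin.

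Neither co-receptor was called in any comparison. Lrp5 was at 7.99, 7.81 and 9.81 FPKM in control, 10.9, 10.9 and 11.1 FPKM in DNCB, 10.1, 8.65 and 9.13 FPKM in scMSC and 10.5, 10.5 and 7.48 FPKM in scivMSC skin. Its log2 changes were 0.18 ± 0.12, -0.22 ± 0.12 and -0.21 ± 0.12 in the 3 comparisons with or against DNCB (smallest adjusted p = 0.288). Lrp6 was at 6.25, 5.13 and 6.70 FPKM in control, 8.06, 7.72 and 8.53 FPKM in DNCB, 11.8, 10.1 and 10.5 FPKM in scMSC and 11.2, 11.4 and 6.58 FPKM in scivMSC skin, and its changes in these comparisons were 0.25 ± 0.16, 0.44 ± 0.16 and 0.26 ± 0.16 (smallest adjusted p = 0.117).

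R-spondins and their Lgr receptors gave no call in the comparisons with or against DNCB. Lgr4, the most widely expressed of these receptors, was at 7.42, 7.91 and 7.53 FPKM in control, 10.2, 6.64 and 8.49 FPKM in DNCB, 14.9, 15.4 and 14.6 FPKM in scMSC and 14.4, 13.1 and 13.7 FPKM in scivMSC skin, and the MSC libraries lay above all others. Its difference from DNCB was 0.85 ± 0.15 with scMSC (adjusted p = 0.00470) and 0.71 ± 0.15 with scivMSC (adjusted p = 0.0171), past the adjusted p but under the fold limit. The scivMSC difference missed without DNCB 2 or DNCB 3 or scivMSC 1 or scivMSC 3 (adjusted p = 0.0509 to 0.0629 there and 0.000771 to 0.0629 over all alternatives). It passed in 16 of 21 alternatives. Lgr5, which marks follicle stem cells, was at 2.43, 1.95 and 1.61 FPKM in DNCB and 2.56, 2.92 and 2.58 FPKM in scMSC skin (adjusted p = 0.131). Lgr6, which marks other epithelial stem cells of the skin, was at 5.21, 5.53 and 7.44 FPKM in control and 3.97, 4.01 and 3.96 FPKM in DNCB skin (-0.78 ± 0.21, adjusted p = 0.0183), and the adjusted p missed without any of the DNCB replicates (adjusted p = 0.0511 to 0.0572 there and 0.00205 to 0.0675 over all alternatives). The Lgr6 difference passed in 15 of 21 alternatives. The R-spondins Rspo1 to Rspo4 together were at 3.10 ± 0.618 FPKM in control, 3.37 ± 0.488 FPKM in DNCB, 7.02 ± 1.74 FPKM in scMSC and 6.31 ± 1.65 FPKM in scivMSC skin, but no R-spondin passed the adjusted p against DNCB.

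The secreted inhibitors held the only member that fell from DNCB levels with MSCs. Sfrp2, which binds Wnt proteins through a domain like that of Frizzled, was at 13.1, 10.3 and 11.3 FPKM in control and 33.6, 19.7 and 33.7 FPKM in DNCB skin, and at 6.35, 1.29 and 4.52 FPKM in scMSC and 6.51, 5.24 and 1.08 FPKM in scivMSC skin. DNCB libraries were above all others and MSC libraries below all others. Sfrp2 fell from DNCB 7.15-fold with scMSC (-2.84 ± 0.62, adjusted p = 0.0138), under all 21 alternatives, and 6.84-fold with scivMSC (-2.77 ± 0.62, adjusted p = 0.0234). The scivMSC call was lost without DNCB 1 or DNCB 3 or scivMSC 1 (adjusted p = 0.0512 to 0.0702 there and 3.33e-05 to 0.0702 over all alternatives). Its difference between DNCB and control, 1.13 ± 0.59, did not pass (adjusted p = 0.188), but it passed when only these 6 libraries were fitted (adjusted p = 0.0117 there and 0.0117 to 0.348 over all alternatives). The summed level of 7 fibroblast markers, among them Col1a1, was like Sfrp2 highest in DNCB skin. It was at 381 to 567 FPKM in control, 2110 to 2452 FPKM in DNCB, 335 to 953 FPKM in scMSC and 160.1 to 1114 FPKM in scivMSC skin. In scMSC 1, scivMSC 1 and scivMSC 2 this sum was above every control, whereas Sfrp2 was below every control there. None of the 7 was at 0 in all libraries, 4 of 7 rose with DNCB, 3 of 7 fell with scMSC and none was called with scivMSC. The 6 neutrophil markers summed to 120.4 to 207 FPKM in control, 2456 to 3426 FPKM in DNCB, 15.8 to 65.1 FPKM in scMSC and 34.1 to 177 FPKM in scivMSC skin. All 6 rose with DNCB and fell from DNCB in both MSC groups, and none was at 0 in all libraries. The part of both lists in the Sfrp2 result was not tested.

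Sfrp4 and Sfrp5, of the same family as Sfrp2, fell with DNCB. Sfrp4 was at 18.5, 13.7 and 15.1 FPKM in control, 5.83, 3.90 and 2.97 FPKM in DNCB, 11.1, 2.51 and 5.98 FPKM in scMSC and 8.23, 3.78 and 1.56 FPKM in scivMSC skin. All controls exceeded all other libraries, and the MSC libraries spread on either side of the DNCB range. It fell 4.24-fold with DNCB (-2.08 ± 0.58, adjusted p = 0.0230), a call lost without control 1 or DNCB 2 or DNCB 3 (adjusted p = 0.0627 to 0.0843 there and 0.000756 to 0.0843 over all alternatives). Sfrp5 was at 4.78, 6.93 and 4.70 FPKM in control and 1.72, 2.85 and 3.41 FPKM in DNCB skin and fell 2.34-fold (-1.23 ± 0.34, adjusted p = 0.0228), a call lost without control 2 or DNCB 1 or DNCB 2 (adjusted p = 0.0549 to 0.0815 there and 0.00253 to 0.0815 over all alternatives) and on log2(FPKM + 1), where the log2 change was -0.83. Neither was called with MSCs against DNCB. The ratio of Sfrp2 to Sfrp4 was 0.709 to 0.753 in control libraries, 5.04 to 11.3 in DNCB, 0.514 to 0.755 in scMSC and 0.693 to 1.39 in scivMSC libraries, so the DNCB group stood apart on this ratio. Sfrp1 was not called in any comparison, and it gave the largest share of the family in 5 of the 6 MSC libraries.

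Dkk3, a divergent member of the Dickkopf family, rose with DNCB. It was at 8.76, 6.15 and 9.08 FPKM in control, 23.7, 26.7 and 20.6 FPKM in DNCB, 19.7, 10.7 and 11.7 FPKM in scMSC and 16.6, 17.1 and 7.98 FPKM in scivMSC skin. The rise was 2.61-fold (1.39 ± 0.28, adjusted p = 0.00540) and was called under all 21 alternatives, with every DNCB library above every other. With MSCs the change from DNCB was -0.74 ± 0.28 (adjusted p = 0.118) and -0.77 ± 0.28 (adjusted p = 0.122). The scMSC difference passed without scMSC 1 (log2 fold change -1.02, adjusted p = 0.0426 there and 0.0426 to 0.304 over all alternatives). Dkk2 did not pass in any comparison.

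Notum, an enzyme that removes the lipid from Wnt proteins and is a target of the pathway, was higher with MSCs. It was at 2.37, 5.30 and 1.87 FPKM in control and 0.638, 0.543 and 1.93 FPKM in DNCB skin, and at 3.68, 6.54 and 11.01 FPKM in scMSC and 3.52, 4.92 and 9.18 FPKM in scivMSC skin. Control 2 was again the highest control and DNCB 3 the highest of its group, and all MSC libraries were above all DNCB libraries. Notum rose 6.94-fold with scMSC (2.80 ± 0.66, adjusted p = 0.0191), a call lost without DNCB 1 or DNCB 2 or scMSC 3 (adjusted p = 0.0604 to 0.0784 there and 6.53e-05 to 0.0784 over all alternatives). With scivMSC it rose 5.77-fold (2.53 ± 0.65, adjusted p = 0.0392), a call lost without control 1, DNCB 1 or DNCB 2, scMSC 2 or scivMSC 1 or scivMSC 3 (adjusted p = 0.0501 to 0.138 there and 0.000663 to 0.138 over all alternatives), and also when only the 6 libraries compared were fitted. The difference between DNCB and control, -1.82 ± 0.64 (adjusted p = 0.0600), passed under 5 alternatives, among them DESeq2 and the fits without control 3, DNCB 3 or scivMSC 3 (adjusted p = 0.00987 to 0.0471 there and 0.00987 to 0.198 over all alternatives).

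Wif1, which binds Wnt proteins outside the cell, was at 5.23, 8.05 and 4.87 FPKM in control, 6.01, 4.73 and 9.28 FPKM in DNCB, 11.2, 15.8 and 34.8 FPKM in scMSC and 10.5, 9.31 and 14.2 FPKM in scivMSC skin. All 6 MSC libraries were above all 6 others, and scMSC 3 was by far the highest. It rose 3.14-fold with scMSC (1.65 ± 0.42, adjusted p = 0.0276), a call lost without DNCB 1 or DNCB 2 or scMSC 3 (adjusted p = 0.0970 to 0.105 there and 0.00113 to 0.105 over all alternatives), and also when only the 6 libraries compared were fitted. The scivMSC change was 0.79 ± 0.41 (adjusted p = 0.298).

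Of the 3 feedback inhibitors, Nkd2 was called with both MSC routes. Nkd2, which binds the transducer Dishevelled, was at 2.47, 3.52 and 1.72 FPKM in control, 3.91, 4.21 and 4.45 FPKM in DNCB, 15.6, 28.0 and 29.7 FPKM in scMSC and 13.0, 8.26 and 12.1 FPKM in scivMSC skin. The 4 groups did not overlap at all. It rose 5.97-fold from DNCB with scMSC (2.58 ± 0.34, adjusted p = 0.00199) under all 21 alternatives, and 2.68-fold with scivMSC (1.42 ± 0.32, adjusted p = 0.0244). The scivMSC call was lost without any DNCB replicate or without scivMSC 1 or scivMSC 3 (adjusted p = 0.0717 to 0.0900 there and 0.000771 to 0.0900 over all alternatives). Axin2, a scaffold of the complex that degrades β-catenin and the best known readout of the pathway, was at 6.07, 4.75 and 5.62 FPKM in control, 6.52, 5.47 and 5.89 FPKM in DNCB, 8.12, 8.03 and 12.8 FPKM in scMSC and 8.69, 6.43 and 6.82 FPKM in scivMSC skin. Its change with scMSC was 0.72 ± 0.19 (adjusted p = 0.0314), under the fold limit. It missed the adjusted p without any DNCB replicate or without scMSC 2 or scMSC 3 (adjusted p = 0.0513 to 0.111 there and 0.00721 to 0.111 over all alternatives), and its scivMSC change was 0.30 ± 0.19 (adjusted p = 0.384). The scMSC difference of Axin2 passed in 12 of 21 alternatives. Nkd1 was at 2.39, 2.65 and 2.56 FPKM in DNCB and 3.58, 4.03 and 6.04 FPKM in scMSC skin (0.87 ± 0.26, adjusted p = 0.0492), and this difference missed the adjusted p without control 1, any DNCB replicate, scMSC 2 or scMSC 3, or scivMSC 1 (adjusted p = 0.0613 to 0.174 there and 0.0119 to 0.174 over all alternatives). The Nkd1 difference passed in only 10 of 21 alternatives.

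Lef1 had the largest fitted rise of the 47 tested members in both MSC comparisons, with Notum next. This DNA-binding partner of β-catenin, known for its presence in the growing part of the follicle, was at 0.480, 1.43 and 0.539 FPKM in control and 0.505, 0.495 and 1.11 FPKM in DNCB skin. It was at 4.03, 7.97 and 11.9 FPKM in scMSC and 3.89, 2.91 and 5.50 FPKM in scivMSC skin, so that all 6 MSC libraries were above all 6 others. Lef1 rose 11.6-fold from DNCB with scMSC (3.53 ± 0.58, adjusted p = 0.00406), under all 21 alternatives, and 5.93-fold with scivMSC (2.57 ± 0.56, adjusted p = 0.0216). On the log2(FPKM + 1) scale, on which low values are compressed, these log2 changes were 2.31 and 1.57. The scivMSC call was lost without DNCB 1 or DNCB 2 or scivMSC 1 or scivMSC 3 (adjusted p = 0.0570 to 0.0863 there and 4.32e-05 to 0.0863 over all alternatives). Tcf7, its close relative, was at 2.79, 3.70 and 2.85 FPKM in control, 4.61, 3.18 and 4.22 FPKM in DNCB, 7.48, 13.3 and 12.9 FPKM in scMSC and 6.09, 4.79 and 7.03 FPKM in scivMSC skin. It rose 2.88-fold with scMSC (1.52 ± 0.28, adjusted p = 0.00581), under all 21 alternatives, and its scivMSC change was 0.60 ± 0.27 (adjusted p = 0.223). The antisense transcripts Lef1os1, Notumos and Myadml2os, Gm2670, A630014C17Rik and AU022754 overlap Lef1, Notum, Wnt5a, Tcf7 and Wnt7b respectively on the other strand, with mean levels of at most 1.12 FPKM. Whether the authors' counting used strand is not given in the sources used here, so reads of these pairs may not be told apart.

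Other genes of the pathway were counted in the same way. A list of 57 such genes had 56 tested, of which 4 rose and 3 fell with DNCB (12.5%), 4 rose with scMSC (7.14%), and 3 rose and 1 fell with scivMSC (7.14%) against DNCB, beside 14.2%, 8.5% and 5.46% of all genes. Against control, 10 rose and 2 fell with scMSC (21.4%) and 6 rose and 1 fell with scivMSC (12.5%), beside 9.32% and 6.85% of all genes. Of 15 genes of the β-catenin destruction complex and its transducers, none was called with DNCB or scivMSC, and Csnk1e, a kinase of the pathway, rose with scMSC from 10.6, 10.5 and 11.5 FPKM to 19.2, 28.7 and 21.03 FPKM (1.12 ± 0.19, adjusted p = 0.00437). Without scMSC 2 the log2 change of Csnk1e was 0.85, under the fold limit. Ctnnb1, the gene of β-catenin, was at 133, 81.5 and 127 FPKM in DNCB and 129.7, 108 and 164 FPKM in scMSC skin (adjusted p = 0.548).

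Porcn, Ptk7 and Ror2 rose with DNCB. Porcn, the enzyme that attaches the lipid to Wnt proteins, was at 4.50, 6.09 and 5.97 FPKM in control and 17.0, 16.5 and 14.2 FPKM with DNCB (1.34 ± 0.16, adjusted p = 0.000685). The co-receptors Ptk7 (1.53 ± 0.31, adjusted p = 0.00539) and Ror2 (1.56 ± 0.30, adjusted p = 0.00377) rose too, as 2 of 4 listed co-receptors, and Ror2 is a receptor for Wnt5a. Frzb, a secreted inhibitor related to the Sfrp proteins, fell from 6.93, 6.18 and 6.08 FPKM to 2.01, 2.00 and 1.78 FPKM (-1.91 ± 0.30, adjusted p = 0.00158). These 4 calls stood under all 21 alternatives. Ccnd1, the gene of cyclin D1, rose (1.04 ± 0.32, adjusted p = 0.0378) and Ascl2, a transcription factor and Wnt target, fell (-1.72 ± 0.51, adjusted p = 0.0308). The Ccnd1 call was lost without any control or DNCB replicate, scMSC 2 or scivMSC 3 (adjusted p = 0.0376 to 0.117 there and 0.00185 to 0.117 over all alternatives), in the last 2 cases on the fold limit, and the Ascl2 call without control 3 or DNCB 1 or DNCB 3 (adjusted p = 0.0759 to 0.0995 there and 0.00353 to 0.0995 over all alternatives). The calls of Ccnd1 and Ascl2 stood in 12 and 16 of 21 alternatives.

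Vangl2, Ctnnbip1 and Tpbg rose in both MSC groups. Vangl2, a core gene of planar cell polarity, was at 4.87, 3.68 and 4.30 FPKM in control, 3.53, 2.49 and 2.85 FPKM in DNCB, 10.5, 14.3 and 15.7 FPKM in scMSC and 11.01, 9.16 and 10.3 FPKM in scivMSC skin. It rose from DNCB by 2.22 ± 0.20 (adjusted p = 0.000718) and 1.79 ± 0.20 (adjusted p = 0.00255), under all 21 alternatives. Ctnnbip1, which blocks the binding of β-catenin to Lef1 and Tcf7, fell with DNCB from 27.2, 44.8 and 50.3 FPKM to 13.8, 16.2 and 14.3 FPKM (-1.64 ± 0.21, adjusted p = 0.000830) and rose to 35.4, 29.4 and 24.4 FPKM with scMSC (1.03 ± 0.21, adjusted p = 0.00927) and 34.0, 27.7 and 27.9 FPKM with scivMSC (1.02 ± 0.21, adjusted p = 0.0163). The scMSC value fell under the fold limit without DNCB 1 or scMSC 1 or scMSC 2 (log2 fold changes of 0.98, 0.92 and 0.98), and the scivMSC call was lost without DNCB 1 or DNCB 3 or scivMSC 1 (adjusted p = 0.0596 to 0.0673 there and 0.000346 to 0.0673 over all alternatives). Tpbg, a membrane inhibitor, rose too (1.66 ± 0.48, adjusted p = 0.0447, and 2.16 ± 0.49, adjusted p = 0.0239). The scMSC call stood in only 4 of 21 alternatives and was lost without any library other than scMSC 1 (adjusted p = 0.0556 to 0.159 there and 0.00143 to 0.159 over all alternatives), and the scivMSC call was lost without any DNCB replicate or scivMSC 1 or scivMSC 3 (adjusted p = 0.0517 to 0.0871 there and 0.000188 to 0.0871 over all alternatives). The scivMSC call of Tpbg stood in 15 of 21 alternatives. Dact1, a Dishevelled-binding feedback gene, fell with scivMSC (-1.22 ± 0.28, adjusted p = 0.0260), a call lost without DNCB 1 or DNCB 2 or scivMSC 1 or scivMSC 3 (adjusted p = 0.0723 to 0.0983 there and 0.000645 to 0.0983 over all alternatives) and when only the 6 libraries compared were fitted. The Dact1 call stood in 14 of 21 alternatives. On the log2(FPKM + 1) scale the calls of Ascl2, Csnk1e, Ctnnbip1 with either MSC route and Dact1 were lost on the fold limit, and that of Ctnnbip1 with scMSC was lost on the other 2 FPKM scales too.

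Members also differed between MSC skin and control skin. Against control, 12 members were called in scMSC skin (25.5%, beside 9.32% of all genes) and 8 in scivMSC skin (17.0%, beside 6.85%), and both comparisons share the controls. Of the 12, 9 rose and 3 fell, beside 5.12% and 4.2% of all genes. Of the 8, 5 rose and 3 fell, beside 3.5% and 3.35%. The members that rose in both groups were Lef1 (3.11 ± 0.57 with scMSC and 2.15 ± 0.55 with scivMSC), Nkd2 (3.08 ± 0.34 and 1.93 ± 0.33), Wnt5a (2.58 ± 0.39 and 1.54 ± 0.38), Wnt11 (2.28 ± 0.28 and 1.36 ± 0.27) and Fzd5 (2.49 ± 0.31 and 1.61 ± 0.30). Adjusted p for these ran from 0.000944 to 0.0280. Fzd4 and Fzd9 fell against control in both, with log2 changes of -1.09 ± 0.18 and -1.03 ± 0.18 for Fzd4 and -2.16 ± 0.49 and -2.15 ± 0.49 for Fzd9.

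The remaining calls against control were in a single MSC group. In scMSC skin Fzd10 (1.45 ± 0.31, adjusted p = 0.00969), Rspo4 (2.43 ± 0.58, adjusted p = 0.0157), Wif1 (1.59 ± 0.42, adjusted p = 0.0246) and Tcf7 (1.69 ± 0.28, adjusted p = 0.00288) rose and Lgr6 (-1.02 ± 0.21, adjusted p = 0.00745) fell, and in scivMSC skin Sfrp4 fell (-2.0 ± 0.58, adjusted p = 0.0443). Rspo4, an R-spondin, was at 0.548, 0.127 and 0.602 FPKM in control, 1.05, 0.582 and 0.632 FPKM in DNCB and 1.40, 3.62 and 2.53 FPKM in scMSC skin. Its call was lost without scMSC 2 (adjusted p = 0.0670 there and 0.000187 to 0.0670 over all alternatives). It was also lost when only the 6 libraries compared were fitted, as were those of Fzd10 and Wif1 for scMSC and of Sfrp4, Lef1 and Fzd9 for scivMSC. For scMSC, the Wif1 call was lost without control 1 or control 3 or scMSC 3 (adjusted p = 0.0807 to 0.0907 there and 0.00170 to 0.0907 over all alternatives), and the log2 changes of Lgr6 and Fzd4 came under the fold limit, to -0.94 without control 3 and -0.97 without scMSC 2 or scMSC 3 for Lgr6, and to -0.97 without control 1 for Fzd4. Against control, the scMSC calls of Lgr6 and Fzd4 stood in 15 and 17 of 21 alternatives, and the scivMSC call of Fzd4 in 17. For scivMSC, the Fzd4 change without control 1 was -0.91, and calls were lost for Wnt11 without control 1 (adjusted p = 0.0523 there and 0.000149 to 0.0523 over all alternatives), for Wnt5a without control 1 or control 3 or scivMSC 1 or scivMSC 2 (adjusted p = 0.0605 to 0.0795 there and 0.00117 to 0.0795 over all alternatives), for Lef1 without control 1 or control 3 or scivMSC 1 or scivMSC 3 (adjusted p = 0.0623 to 0.106 there and 0.000801 to 0.106 over all alternatives) and for Fzd9 without control 1 or scivMSC 1 (adjusted p = 0.0517 to 0.0572 there and 7.97e-05 to 0.0768 over all alternatives). The Sfrp4 call was lost without any control or DNCB replicate, scMSC 3 or scivMSC 2 or scivMSC 3 (adjusted p = 0.0563 to 0.140 there and 0.00199 to 0.140 over all alternatives).

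The routes of MSC injection were not told apart by any member. Between scivMSC and scMSC skin, none of the 47 members was called by edgeR or in DESeq2, beside 0.00457% of all genes, and 8 members (17.0%) had an unadjusted p under 0.05, beside 7.5% of all genes. The smallest adjusted p was 0.565. Most members were nonetheless lower with the combined route, with a median log2 difference of -0.26 against 0.01 for all genes and 12 of 47 above 0. The values of scivMSC minus scMSC were -1.16 ± 0.32 for Nkd2, -0.92 ± 0.26 for Wnt11, -0.93 ± 0.27 for Tcf7 and -0.96 ± 0.53 for Lef1. A call against DNCB with scMSC and not with scivMSC therefore does not show that the routes differed for that member.

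Summed markers of the follicle matrix and the hair shaft were higher in MSC skin than in control or DNCB skin. The summed level of 6 follicle matrix genes, among them Msx2, Hoxc13, Shh and Krt35, was 16.2 to 61.3 FPKM in control, 27.8 to 54.8 FPKM in DNCB, 238 to 587 FPKM in scMSC and 138 to 263 FPKM in scivMSC skin. Against DNCB, 5 of the 6 rose with scMSC and 3 of 6 with scivMSC, and none was at 0 in all libraries. The 10 hair shaft and inner root sheath genes, keratins and trichohyalin of the forming hair, summed to 3.43 to 312 FPKM in control, 293 to 933 FPKM in DNCB, 6853 to 19584 FPKM in scMSC and 2530 to 6287 FPKM in scivMSC skin, and 6 of 10 rose with scMSC and 4 of 10 with scivMSC. Lef1, Wnt10b, Notum and Nkd2 were highest among the controls in control 2, the control library with the most hair shaft RNA. In DNCB skin that sum was highest in DNCB 3, as were Lef1, Notum and Nkd2 but not Wnt10b. In scMSC skin the sum was highest in scMSC 2, while all of these members were highest in scMSC 3. In scivMSC skin the sum and Nkd2 were highest in scivMSC 1, but Lef1, Wnt10b and Notum in scivMSC 3. Wnt11 was highest in the same library as the hair shaft sum in each group. The follicle matrix sum was highest in control 2, DNCB 3, scMSC 3 (587 FPKM, beside 567 FPKM in scMSC 2) and scivMSC 3. Lef1, Notum and Wif1 were highest in these libraries too. Wnt10b was highest elsewhere only in DNCB skin (DNCB 1), and Nkd2 only in scivMSC skin (scivMSC 1). The 5 melanocyte genes summed to 10.1 to 29.2 FPKM in control, 72.6 to 91.6 FPKM in DNCB, 123 to 318 FPKM in scMSC and 111 to 165 FPKM in scivMSC skin. Against control 4 of the 5 rose with DNCB and all 5 in both MSC groups, and against DNCB 2 rose with scMSC and 1 with scivMSC. The part of these lists in the rise of Lef1, Wnt10b, Wnt11, Nkd2, Notum and Wif1 was not tested.

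Other marker lists, some of them also of follicle cells, moved in other ways. The 7 bulge and outer root sheath genes summed to 521 to 776 FPKM in control, 213 to 336 FPKM in DNCB, 289 to 550.3 FPKM in scMSC and 345 to 616 FPKM in scivMSC skin. None of the 7 was called in either MSC group against DNCB. The 8 dermal papilla genes summed to 16.8 to 24.5 FPKM, 93.9 to 112 FPKM, 22.8 to 37.1 FPKM and 23.9 to 51.9 FPKM in the same order, with Crabp1 making up most of the DNCB sum. Against DNCB, 2 of the 8 rose and 1 fell with scMSC, and 1 rose and 1 fell with scivMSC. The median log2 fold changes of the 8 were 0.38 and 0.43. The 5 stress keratins and related genes of damaged epidermis were at 505 to 586 FPKM in control and 7484 to 9246 FPKM in DNCB skin, and scivMSC 2 stood apart from the other MSC libraries at 4819 FPKM. Skeletal muscle genes, from the muscle layer below the skin, summed to 14648 to 20598 FPKM in control and 4115 to 5676 FPKM in DNCB skin, and 5 of the 6 fell with DNCB, while none was called with MSCs against DNCB. The 5 sebaceous gland genes summed to 529 to 661 FPKM in control, 123 to 136 FPKM in DNCB, 315 to 554 FPKM in scMSC and 330.3 to 666 FPKM in scivMSC skin. Of these, 4 fell with DNCB, 3 rose from DNCB with each MSC route, none was called in MSC skin against control, and none was at 0 in all libraries. The part of these lists in the falls of Wnt3, Fzd4, Fzd9 and Sfrp4 with DNCB and in the rise of Wnt3 with MSCs was not tested.

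**Figure D4:**
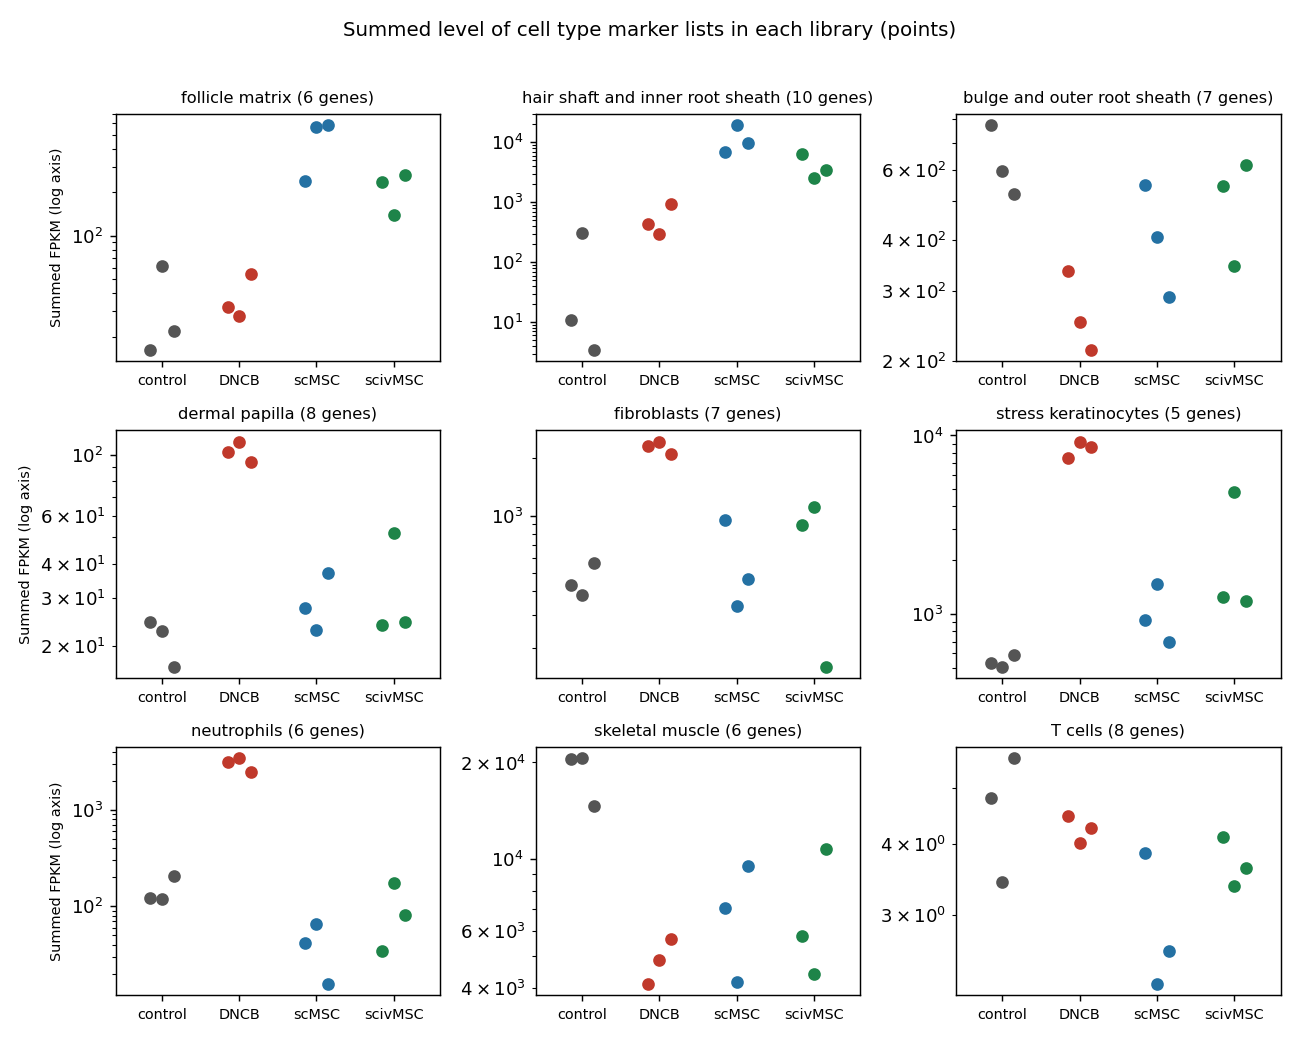
Summed FPKM (log axes) of 9 lists of cell type markers in each library (points), by group. Follicle matrix and hair shaft genes are highest in the 6 MSC libraries (138 to 587 FPKM and 2530 to 19584 FPKM), while fibroblast, stress keratinocyte and neutrophil genes are highest in the 3 DNCB libraries.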

How the data were processed

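RNA sequencing of dorsal skin was analysed from the gene table that the authors deposited, which holds for each of 12 libraries an estimated count and an FPKM value per gene. The submitters' processing notes list Bowtie 0.12.2, HISAT2 2.0 and StringTie 1.3.0 and the build mm8, with no role or order. The coordinates in the deposited table are those of GRCm38, in which all 54 members overlapped their gene, and promoter sequences are from RefSeq (GRCm38.p6). About 4 estimated counts were taken to stand for 1 fragment, since 38.9% to 41.2% of counts from 1 to 18 were multiples of 4. Totals were 63877153 to 75134001 estimated counts per library. Limits from low counts cover counting error only.

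Libraries were grouped by their titles. Rounded estimated counts were fitted with edgeR 4.0.16 (R 4.3.3; TMM factors, quasi-likelihood F-test, 1 model of 4 groups, no covariate) for the 21890 genes whose mean level reached 0.1 FPKM, with Benjamini-Hochberg adjustment over all of them, and the code was tested on simulated data. The SE is the absolute log2 fold change divided by the square root of F. Values in every library are given for members called at adjusted p under 0.05 and absolute log2 fold change over 1 in a comparison with or against DNCB, the 10 members with the highest mean are named with their level, and the pathway genes named are those so called. Other genes with values (Wnt4, Fzd1, Fzd3, Fzd6, Fzd7, Lgr4, Lgr5, Lgr6, Rspo4, Lrp5, Lrp6, Axin2, Nkd1 and Ctnnb1) were chosen after their values were seen. The members and gene lists were chosen with earlier results of these data known.

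Alternatives were DESeq2 1.42.0, its size factors in edgeR, no filter, limma 3.58.1 on log2(FPKM + 0.1), log2(FPKM + 0.01) and log2(FPKM + 1), only the 6 libraries compared, a replicate block, estimated counts divided by 4, and each library left out. Leaving out a library keeps 2 in its group, and the spread is then estimated from all groups. Summed levels and shares were computed from FPKM and not tested.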

Additional observations from a re-analysis of the deposited data

How the results depend on the processing

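The 27 calls of members in the comparisons with or against DNCB kept their direction under all 21 alternatives, and 13 of them stayed called under every alternative. All 27 stayed called with DESeq2, with its size factors and with counts divided by 4, 26 without the filter, 25 with the replicate block, 24 when only the 6 libraries compared were fitted, and 24, 24 and 23 on log2(FPKM + 0.1), log2(FPKM + 0.01) and log2(FPKM + 1). With 1 library left out, members called ran from 4 to 9 for DNCB against control, 9 to 16 for scMSC against DNCB, 1 to 7 for scivMSC against DNCB, 10 to 18 for scMSC against control and 2 to 9 for scivMSC against control, and stayed at 0 between the routes. Other pathway genes called ran from 6 to 8, 1 to 5 and 1 to 5 in the first 3 of these. Members called for DNCB against control were 5 on log2(FPKM + 1), and for scivMSC against control 5 when only the 6 libraries were fitted. Pathway genes called for scMSC against DNCB were 2, 2 and 1 on the 3 FPKM scales, and for scivMSC against DNCB 2 on log2(FPKM + 1) and 2 with the replicate block.

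The replicate numbers did not pair the libraries. Over 18 pairs with the same number, deviations correlated at -0.21 to 0.149, and 1 pair was over 0.1. With the replicate block 9, 11, 6, 13, 8 and 0 members were called in the 6 comparisons.

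Small log2 changes reversed sign. For DNCB against control on log2(FPKM + 0.1), log2(FPKM + 0.01) and log2(FPKM + 1), they became 0.15, 0.16 and 0.10 for Wnt11, 0.14, 0.16 and 0.060 for Wnt10b, 0.12, 0.12 and 0.11 for Wif1 and 0.028, 0.029 and 0.022 for Fzd10. The log2 change of Sfrp4, scivMSC against DNCB, became -0.15, -0.16 and -0.077 on these scales and -0.069 with the replicate block. With 1 library left out, values for DNCB against control ran from -0.90 to 0.26 for Lef1, -0.19 to 0.12 for Wnt11, -0.80 to 0.33 for Wnt10b and -0.36 to 0.19 for Wif1. They ran from -0.17 to 0.15 for Fzd4 and -0.078 to 0.46 for Wnt7b for scMSC against DNCB, and from -0.19 to 0.74 for Fzd9, -0.66 to 0.49 for Sfrp4 and -0.065 to 0.21 for Fzd4 for scivMSC against DNCB. None of these was called. The FPKM scales put the median of all genes at 0.105 to 0.227 log2 units for DNCB against control and 0.107 to 0.212 for scivMSC against control. For the rest the cause was not tested. Depth limits Dkk1, Dkk4, Wnt1 and Wnt8b.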
